A study of Mus musculus with 4 samples.

Results

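The R-sRNAs described here are fragments of the cytosolic tRNAs that carry Asn, Thr, Gln, Ser, Ile and Met, recovered from the RISC of mouse brain. They were selected on what a read matched and on its 3′ end: the read had no miRNA match, its first tRNA name was an isoacceptor of 1 of these 6 amino acids, and it did not end in the CCA tail of a mature tRNA. The level of a read played no part in that choice, but the amino acids were grouped with earlier results on the 2 ages in view. Of 85704 sequences in the table, 5512 matched a tRNA and 1436 were members. They were 15 to 31 nt long and were named after 15 isoacceptors.

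Ago proteins and their bound RNA were pulled down with a GW182 peptide from cortex and hippocampus combined, and the short RNAs were sequenced. There were 2 libraries from 2 months old BL6 mice and 2 libraries from 18 months old BL6 mice, which the methods of the study describe as male C57BL/6J mice; no treatment and no transgene is given for either age. The labels do not say whether the 2 libraries of an age came from separate animals, so p-values measure the spread between these libraries, which may be technical. Levels are in CPM, the reads of a sequence per 1000000 reads of its library. The reads behind that scale numbered 9067007 to 11388999, and 3 reads were worth 0.263 to 0.331 CPM. Since tissue was sequenced in bulk, fewer cells that make a fragment and less of it per cell cannot be told apart.

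A tRNA folds into an acceptor stem, a D arm, an anticodon arm, a variable region and a T arm, and its 3′ end receives the CCA to which the amino acid is attached. Stem and loop cuts release fragments, some of which enter Ago proteins. There, bases 2 to 7 of the guide form the 6mer seed that pairs with mRNAs, and the 6mer seed viability is the mean viability of 3 mouse cell lines carrying an siRNA with that seed, in percent of the control, so that a low value marks a toxic seed.

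The sequences below are the most abundant read of each isoacceptor that averaged at least 10 CPM, printed 5′ to 3′ with the 6mer seed in capitals and T for U, because the ages differed by where in the tRNA a read lay.
AsnGTT, 23 nt: tAACCGAaaggttggtggttcga
GlnCTG, 20 nt: aATCCAGcgatccgagttca
IleAAT, 23 nt: tAACGCCaaggtcgcgggttcga
IleTAT, 23 nt: aATGCCGaggttgtgagttcgag
MetCAT, 23 nt: tAACCCAgaggtcgatggatcga
ThrCGT, 21 nt: aACCGAAgatcacgggttcga
ThrTGT, 22 nt: tAAACCAggggtcgcgagttca
ThrAGT, 23 nt: tAAACAGgagatcctgggttcga
SerGCT, 26 nt: tAATCCAttgtgctttgcacgcgtgg
SerAGA, 25 nt: aATCCATtggggtttccccgcgcag
SerCGA, 18 nt: gTCACGGtggccgagtgg
SerTGA, 18 nt: gCAGCGAtggccgagtgg
The first 8 all carried the letters GTTC or GATC within 5 bases of their 3′ end; GTTC is the conserved start of the T loop of tRNAs, and GATC stands at that place in the MetCAT read. The SerCGA and SerTGA reads instead carried TNGNNNANNNG, the letters of the A box in the D arm, near their 5′ end.

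The deposited names place the AsnGTT reads in the gene copy trna757 of chromosome 3, the ThrCGT read in trna50 of chromosome 16 and the SerCGA read in trna688 of chromosome 10. The GlnCTG read was given 4 gene copies, the first of them trna64 of chromosome 13, and the IleAAT read 8, the first of them trna92 of chromosome 13. The names carry no coordinates, and all of them refer to the mature tRNA. RefSeq annotates 13 AsnGTT genes of 74 nt on GRCm38.p6, so 1 name can stand for identical copies. The copy from which a read came was therefore uncertain. Each of the 1436 members named 1 isoacceptor, but whether another isoacceptor holds the same bases was not checked.

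Together the members made up 0.112% (95% Wilson interval 0.110 to 0.114) and 0.115% (0.113 to 0.117) of what was read at 2 months. They made up 0.247% (0.244 to 0.2495) and 0.225% (0.222 to 0.228) at 18 months. Both older libraries lay above both younger ones, with means of 1137 CPM ± 21.9 (SD, n = 2) for the younger and 2357 CPM ± 153 (SD, n = 2) for the older. These intervals cover counting error only. An exact permutation test of 2 libraries against 2 cannot go below p = 0.333 (two-sided), so the summed levels are given as a description.

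The increase was unequal among the amino acids. Asn fragments stood at 145 and 149 CPM in the younger libraries and at 769 and 718 CPM in the older ones, a ratio of means of 5.05. Thr fragments stood at 81.7 and 75.1 CPM and then at 226 and 196 CPM (ratio 2.69). Gln fragments stood at 169 and 150.0 CPM and then at 368 and 304 CPM (ratio 2.11). Met, Ile and Ser fragments had lower ratios, 1.67, 1.56 and 1.31, although the 2 ages did not overlap in any of them. Ser gave the largest part of the members at 2 months, 41.6%, and 26.4% at 18 months, where Asn gave the largest, 31.5%. Without Asn the members summed to 977 and 1003 CPM in the younger libraries and to 1696 and 1532 CPM in the older ones.

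The fragments of the same 6 amino acids that kept their CCA tail did not follow as a sum. They summed to 304 and 301 CPM in the younger libraries and to 283 and 262 CPM in the older ones. Asn was again the one with the highest ratio, 1.92, but at a low level, from 6.39 and 7.38 CPM to 12.4 and 14.0 CPM. Thr was also higher without overlap, from 24.5 and 27.7 CPM to 32.3 and 33.6 CPM. Ser, the largest part of the sum, went from 197 and 201 CPM to 174 and 153 CPM. Met was also lower without overlap, and in Gln and Ile the ages overlapped. The Gly, Glu, Val, Lys, Asp and His fragments without CCA were 1526 sequences, chosen by the same rule on match and 3′ end. They summed to 1493 and 1417 CPM in the younger libraries and to 1420 and 1353 CPM in the older ones. The log2 ratio of the members to these fragments was -0.41 and -0.30 at 2 months and 0.80 and 0.73 at 18 months. Among all nuclear tRNA fragments without CCA, the members' share was 30.8% and 30.6% in the younger libraries and 50.1% and 48.5% in the older ones. The amino acids were grouped with earlier results on the 2 ages in view, so these contrasts are descriptions only. Over the same libraries rRNA matches summed to 1145 and 1222 CPM in the younger libraries and to 931 and 1121 CPM in the older ones.

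Markers of other cells were read from miRNAs. The 3 neuronal miRNAs (miR-124-3p, miR-9-5p, miR-128-3p) summed to 169186 to 195706 CPM in every library. The 5 epithelial miRNAs of the miR-200 family were each higher in both older libraries, with sums of 28970 and 49884 CPM at 2 months and of 60617 and 66546 CPM at 18 months. The endothelial pair of miR-126a arms went the other way, from 12243 and 11472 CPM to 5422 and 8990 CPM, and 1 of the 2 arms did not overlap between the ages. The 3 of 5 red blood cell miRNAs that were found summed to 1805 and 3382 CPM and then to 1703 and 2827 CPM, the 6 immune miRNAs to 3322 and 3790 CPM and then to 3051 and 3112 CPM, and the 3 muscle miRNAs to 199 and 155 CPM and then to 195 and 234 CPM. These sums hide members that went both ways: without overlap, 1 immune miRNA was higher and 2 lower, 1 muscle miRNA was higher and 2 lower, and 1 neuronal miRNA was lower. The part of any of these in the members' levels was not tested.

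For a test across all RNAs, reads were summed per isoacceptor, and limma was fitted to log2(CPM + 1) of every RNA that averaged at least 10 CPM. Of the 12 isoacceptors that qualified, 10 rose at an unadjusted p under 0.05 and none fell, where 5.91% of all 694 summed RNAs rose. After Benjamini-Hochberg adjustment 2 passed, AsnGTT and ThrCGT, where 0.576% of all RNAs did. The median log2 change of all summed RNAs was -0.16, and that of the 12 isoacceptors was 0.84. With median-of-ratios rescaling the median of all RNAs became -0.0020, and 61 of 97 calls were upward in place of 41 of 111, while the 10 isoacceptors still rose. AsnGTT, GlnCTG, ThrCGT and ThrTGT kept the call without any 1 library, and each of the others of the 10 lost it without at least 1. The largest number was lost without replicate 1 of the 2-month-old mice, where fewer of all summed RNAs rose as well. Calls were also lost without replicate 2 of the 2-month-old mice (IleAAT, MetCAT) and without replicate 1 of the 18-month-old mice (MetCAT). Without replicate 2 of the 18-month-old mice SerAGA, IleAAT and ThrAGT lost it. The log2 changes of all 10 stayed positive without any 1 library.

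AsnGTT, at 145 and 149 CPM and then 769 and 718 CPM, rose by 2.33 ± 0.20 (log2, SE, limma, adjusted p = 0.00731). Its log2 change was 2.28 to 2.38 without any 1 of the 4 libraries. With the replicate number added to the limma fit as a block, its adjusted p and that of ThrCGT were 0.196. ThrCGT stood at 40.3 and 30.4 CPM in the younger libraries and at 130.3 and 112 CPM in the older ones. It rose by 1.76 ± 0.24 (log2, SE, limma, adjusted p = 0.0340), but the adjusted p was 0.177 without replicate 2 of the 2-month-old mice and 0.0588 without replicate 1 of the 18-month-old mice, and it was 0.0531 in limma without the variance trend. The rise of AsnGTT was known when the members were grouped, and the amino acids were chosen with earlier results on the 2 ages in view. These rises, and the counts of members and isoacceptors called, are therefore not independent support for the group.

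GlnCTG stood at 162 and 143 CPM and then at 363 and 299.5 CPM, and it rose by 1.11 ± 0.21 (log2, SE, limma, adjusted p = 0.0919). ThrTGT stood at 24.2 and 20.8 CPM and then at 58.3 and 39.9 CPM, a change of 1.07 ± 0.27 on the log2 scale (limma, adjusted p = 0.203). ThrAGT stood at 17.2 and 23.9 CPM and then at 37.0 and 43.2 CPM, a change of 0.95 ± 0.27 (limma, adjusted p = 0.206). The fragments of all 3 Thr isoacceptors were thus higher in both older libraries, and those of ThrCGT had the highest ratio, 3.43.

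The 2 larger Ile isoacceptors differed in level more than in change. IleAAT stood at 138 and 144 CPM and then at 192 and 236 CPM, a log2 change of 0.59 ± 0.21 (limma, adjusted p = 0.256). IleTAT stood at 48.3 and 49.4 CPM and then at 83.0 and 80.2 CPM, a log2 change of 0.73 ± 0.20 (limma, adjusted p = 0.206). MetCAT, which holds the anticodon of both initiator and elongator tRNAs, stood at 90.7 and 87.4 CPM and then at 175 and 124 CPM, a log2 change of 0.72 ± 0.24 (limma, adjusted p = 0.256). In all 3 the call at the unadjusted threshold was lost without replicate 1 of the 2-month-old mice.

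The Ser isoacceptors split. SerGCT stood at 82.3 and 121 CPM and then at 247 and 168 CPM, a log2 change of 1.02 ± 0.29 (limma, adjusted p = 0.206). SerAGA stood at 129.7 and 160.8 CPM and then at 216 and 228 CPM, a log2 change of 0.62 ± 0.21 (limma, adjusted p = 0.256). SerCGA and SerTGA were the 2 isoacceptors that did not pass in either direction. SerCGA stood at 161 and 153 CPM and then at 134 and 136 CPM, a log2 change of -0.22 ± 0.20 (limma, unadjusted p = 0.308), and SerTGA at 74.4 and 61.6 CPM and then at 53.0 and 56.9 CPM, a log2 change of -0.30 ± 0.22 (limma, unadjusted p = 0.219). Both lay lower in the older libraries without overlap. GlnTTG, SerGGA and IleGAT, with 31 members among them, averaged under 10 CPM, and their highest value in any library was 7.24 CPM.

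Reads were next sorted by the landmark letters they held, a grouping made after the levels were seen and therefore given without a test. Reads with GTTC or GATC from position 11 on and at most 5 bases after it, here called reads ending in the T arm, made up 402 of the 1436 members. Before the classes were made exclusive, with the CCA and A box reads taken first, 406 members or 28.3% held the letters in that place, against 3.74% of the sequences without a tRNA match. Reads with the A box letters starting within the first 10 bases numbered 175, or 12.2% of members, against 3.33% of the sequences without a tRNA match. A further 182 ended in CCA followed by 1 to 4 A or T and so escaped the rule on the CCA tail. Of the rest, 136 held GTTC or GATC elsewhere and 541 held none of these landmarks.

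The reads ending in the T arm summed to 528 and 481 CPM in the younger libraries and to 1683 and 1515 CPM in the older ones, a ratio of 3.17. The A box reads summed to 224 and 214 CPM and then to 179 and 171 CPM, a ratio of 0.801. The reads ending in CCA with an added A or T summed to 122 and 125 CPM and then to 100.1 and 97.3 CPM, also 0.801. None of the 3 classes overlapped between the ages, and of these 3 the reads ending in the T arm were the ones higher in the older libraries. It took 47.1% and 41.7% of the members' level at 2 months and 68.3% and 67.4% at 18 months. The reads without landmark letters summed to 193 and 267 CPM and then to 419 and 376 CPM. Those with GTTC or GATC elsewhere summed to 55.3 and 66.1 CPM and then to 83.3 and 89.4 CPM. Both of these classes were also higher in the older libraries without overlap.

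Within an isoacceptor, the classes could be compared where both were present. In IleAAT the reads ending in the T arm stood at 88.4 and 72.4 CPM and then at 153 and 185 CPM, whereas its A box reads stood at 12.3 and 32.5 CPM and then at 15.3 and 22.1 CPM. In MetCAT the former stood at 48.0 and 44.0 CPM and then at 133 and 83.5 CPM, and the A box reads at 13.1 and 5.44 CPM and then at 11.3 and 8.82 CPM. In ThrTGT the former stood at 7.34 and 5.01 CPM and then at 41.0 and 27.1 CPM, and the A box reads at 6.39 and 5.01 CPM and then at 6.15 and 4.96 CPM. The A box reads overlapped between the ages in all 3. In SerAGA the reads ending in the T arm stood at 10.01 and 8.96 CPM and then at 18.0 and 17.5 CPM, and in SerCGA at 7.63 and 4.48 CPM and then at 10.6 and 6.84 CPM, with overlap in the latter. The Ser isoacceptors that did not rise were those with the most of the other classes: A box reads gave 126.7 and 114 CPM of SerCGA at 2 months, and reads with CCA and an added A or T gave 47.6 and 39.4 CPM of SerTGA.

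Where the reads began was looked for in longer reads of the same isoacceptor that held the anticodon directly before or across the first 10 bases. The main GlnCTG read started at the base after the anticodon, as seen in 21 such reads, and the main IleAAT and MetCAT reads started on the last base of the anticodon, as seen in 22 and 14 reads. For ThrTGT and IleTAT 2 reads each, and for ThrCGT 3 reads, placed the start between the last base of the anticodon and the second base after it. No read in the table held the anticodon in front of the main AsnGTT, ThrAGT, SerGCT or SerAGA starts. The same search also put 1 read each of SerTGA and SerCGA families at the anticodon whose leading reads end in CCA and an added A or T, so a start placed by 1 to 3 reads is uncertain. The main GlnCTG, IleAAT and MetCAT reads thus ran from the anticodon or the base after it to the T arm letters.

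Members that share an isoacceptor and a 6mer seed share their 5′ end and overlap in sequence, so they are not independent of each other. Grouped in this way they formed 304 families, of which 30 averaged at least 10 CPM and held 85.1% of the members' level. In 13 of the 30 the most abundant read ended in the T arm, with ratios from 2.05 to 5.41 and no overlap between the ages. Among all single sequences of at least 1 CPM 20.5% were higher without overlap, and the share was not computed for families over the whole table. Since the limit was set on the mean of all 4 libraries, 5 of the 13 passed it through the older libraries, and the count is a description only. The other 8, whose younger libraries alone averaged at least 10 CPM, covered the same range of ratios. Of the 8 families ending in the T arm that averaged 5 to 10 CPM, ratios ran from 1.01 to 2.32, and the ages overlapped in 1, the GlnCTG family with the seed CUGAAU. In 7 the most abundant read was an A box read, with ratios from 0.505 to 1.31, and 4 of these overlapped between the ages. In 3 it ended in CCA with an added A or T, with ratios from 0.783 to 1.13.

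The AsnGTT family with the seed AACCGA held 48 members and the highest level, 122 and 123 CPM in the younger libraries and 686 and 643 CPM in the older ones. It gave 44.4% of the difference between the ages summed over all members. Its seed viability of 72.7% lies above the 70% taken here as high. The GlnCTG family with the seed AUCCAG (53.3%) stood at 125 and 116 CPM and then at 317 and 261 CPM. The IleAAT family with the seed AACGCC (79.6%) stood at 80.3 and 68.9 CPM and then at 140.0 and 174 CPM, and the MetCAT family with the seed AACCCA (78.0%) at 32.2 and 31.3 CPM and then at 101 and 62.0 CPM. In each of the 4 the older libraries lay above the younger.

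In 3 Ser families the most abundant reads began in the same way, with AATCCA after at most 1 base, and ended without the T arm letters; tRNAs for Ser have a long variable arm before the T arm. The SerGCT family with the seed AAUCCA (78.4%) stood at 17.4 and 56.4 CPM and then at 176 and 121 CPM, so that the 2 younger libraries lay far apart while both stayed below the older ones. The SerAGA family with the seed AUCCAU (82.1%) stood at 31.1 and 52.7 CPM and then at 79.8 and 96.3 CPM. The SerCGA family with the seed AUCCAA (79.4%) stood at 5.15 and 8.52 CPM and then at 19.7 and 20.7 CPM. The SerCGA A box family with the seed CUGUGA (60.5%) went the other way, at 64.2 and 54.4 CPM and then at 23.5 and 36.4 CPM.

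Of the single sequences, 206 of the 1436 members averaged at least 1 CPM and were tested with limma among 14287 sequences; they held 82.4% of the members' level. At an unadjusted p under 0.05, 79 of the 206 were higher at 18 months, where 5.87% of all sequences were, and 7 were lower, where 4.23% were. In 113 of the 206 both older libraries lay above both younger ones, against 20.5% of all sequences. The median log2 change was 0.63 for the 206 and -0.01 for all. After adjustment 3 members passed, where 0.042% of all sequences did, and all 3 were AsnGTT reads. By class, 51 of the 88 tested reads ending in the T arm were higher at the unadjusted threshold and none lower, while of the 18 A box reads none was higher and 2 were lower, and of the 24 reads with CCA and an added A or T none was higher and 3 were lower. Of the 65 tested reads without landmark letters 25 were higher and 2 lower, and of the 11 that held GTTC or GATC elsewhere 3 were higher and none lower. These counts by class describe groups made after the levels were seen.

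The 3 AsnGTT reads and a longer one have a common 5′ end and seed and differ in where they stop, which is why all 4 are shown.
21 nt: tAACCGAaaggttggtggttc
22 nt: tAACCGAaaggttggtggttcg
23 nt: tAACCGAaaggttggtggttcga
24 nt: tAACCGAaaggttggtggttcgag
The 22-nt read stood at 23.9 and 22.9 CPM (251 and 261 reads) at 2 months and at 251 and 185 CPM (2654 and 1677 reads) at 18 months, a log2 change of 3.15 ± 0.31 (limma, adjusted p = 0.0164). The 21-nt read stood at 3.43 and 3.16 CPM and then at 37.4 and 32.4 CPM, a log2 change of 3.06 ± 0.32 (limma, adjusted p = 0.0182). The 23-nt read, the most abundant member, stood at 53.6 and 62.9 CPM and then at 308 and 306 CPM, a log2 change of 2.38 ± 0.29 (limma, adjusted p = 0.0380). For the 23-nt read the adjusted p was 0.0599 in limma with the replicate block, 0.0796 in limma without the variance trend and 0.0732 in edgeR. In limma it was 0.0537 with a pseudocount of 0.1 and 0.0510 without a filter. It stayed under 0.05 with a pseudocount of 5, a filter of 10 CPM, median-of-ratios rescaling and DESeq2. The 24-nt read stood at 19.6 and 22.1 CPM and then at 39.8 and 64.1 CPM, a log2 change of 1.24 ± 0.34 (limma, adjusted p = 0.303). In every read the ages did not overlap. None of the adjusted calls was kept without replicate 1 or without replicate 2 of the 18-month-old mice, nor was any other adjusted call in the table. Without replicate 1 of the 2-month-old mice more members passed after adjustment, as did more of all sequences. Without any 1 library the log2 change was 2.96 to 3.16 for the 21-nt read, 2.93 to 3.37 for the 22-nt read and 2.27 to 2.50 for the 23-nt read. The 24-nt read had an unadjusted p of 0.00510 with all libraries and 0.0506 without replicate 2 of the 18-month-old mice.

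Summed over the AACCGA family, the ratio was 3.85 at 20 nt, where the younger libraries held 1.81 and 1.14 CPM, 10.3 at 21 nt, 9.20 at 22 nt, 5.27 at 23 nt, 2.46 at 24 nt and 2.09 at 25 nt, so that it was highest at 21 nt and lower on both sides. The GlnCTG AUCCAG family showed its highest ratio, 3.83, at 21 nt, with 2.81 at 20 nt, 2.44 at 22 nt, 1.68 at 23 nt and 1.08 at 24 nt. In the ThrCGT family with the seed ACCGAA (78.9%) the ratio was 5.17 at 20 nt, 4.22 at 21 nt, 3.35 at 22 nt and 1.68 at 23 nt. In the SerGCT family it was 18.4 at 21 nt, where the younger libraries held 0.381 and 1.84 CPM and the older 27.1 and 13.9 CPM, and 1.56 at 26 nt. Not every family shared this order. The IleAAT AACGCC family had 2.30 at 21 nt, 1.82 at 22 nt, 2.01 at 23 nt and 2.53 at 24 nt. The SerAGA AUCCAU family had 1.95 at 22 nt, 4.18 at 23 nt, 1.28 at 24 nt and 2.77 at 25 nt. In the ThrAGT AAACAG family the ratio was 1.70 at 22 nt and 2.25 at 23 nt. The MetCAT AACCCA family, with 3.75 at 22 nt and 2.04 at 23 nt, and the IleTAT AUGCCG family, with 5.08 and 1.78, were higher at the shorter length. These ratios were read after the levels were known and carry no test.

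Of the 4 main GlnCTG reads, which stop 1 base apart, the 20-nt and 21-nt forms were among the 5 largest rises.
20 nt: aATCCAGcgatccgagttca
21 nt: aATCCAGcgatccgagttcaa
22 nt: aATCCAGcgatccgagttcaaa
23 nt: aATCCAGcgatccgagttcaaat
The 20-nt read stood at 27.4 and 27.1 CPM and then at 83.8 and 69.8 CPM, a log2 change of 1.46 ± 0.30 (limma, adjusted p = 0.200). The 21-nt read stood at 15.3 and 11.7 CPM and then at 66.4 and 44.2 CPM, a log2 change of 1.94 ± 0.34 (limma, adjusted p = 0.125). The 22-nt read stood at 22.5 and 21.2 CPM and then at 60.5 and 41.9 CPM, and the 23-nt read at 33.3 and 31.6 CPM and then at 56.0 and 49.96 CPM. The log2 changes of the last 2 were 1.17 ± 0.32 and 0.69 ± 0.30 (limma, adjusted p = 0.303 and 0.486), and the ages did not overlap in any of the 4. The unadjusted p of the 23-nt read, 0.0458, was 0.0765 to 0.157 without any 1 library, and that of the 22-nt read, 0.00526, was 0.0515 without replicate 1 of the 18-month-old mice.

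Of the other leading reads ending in the T arm, the 23-nt IleAAT read stood at 32.2 and 25.02 CPM and then at 57.3 and 56.5 CPM (log2 0.98 ± 0.31, limma, unadjusted p = 0.0108, and 0.0629 without replicate 2 of the 2-month-old mice). The IleAAT read 1 base longer, tAACGCCaaggtcgcgggttcgat, stood at 26.2 and 20.02 CPM and then at 47.5 and 67.4 CPM (log2 1.27 ± 0.33, limma, unadjusted p = 0.00382). It was the remaining one of the 5 largest rises, and all 5 passed the unadjusted threshold without any 1 library. The MetCAT read stood at 21.7 and 19.1 CPM and then at 50.8 and 33.5 CPM, and its unadjusted p of 0.0156 became 0.124 without replicate 1 of the 18-month-old mice and 0.0552 without replicate 2 of the 2-month-old mice. The ThrCGT read stood at 6.77 and 3.42 CPM and then at 23.8 and 20.3 CPM (log2 1.97 ± 0.37). The ThrTGT read stood at 1.81 and 2.02 CPM (19 and 23 reads) and then at 14.3 and 9.60 CPM (151 and 87 reads), which gave a log2 change of 2.13 ± 0.35 on the log2(CPM + 1) scale. The ThrAGT read stood at 4.77 and 7.46 CPM and then at 13.8 and 12.7 CPM, and its unadjusted p of 0.0143 (limma) was 0.0950 without replicate 1 of the 2-month-old mice and 0.0670 without replicate 1 of the 18-month-old mice. The IleTAT read, at 6.10 and 7.46 CPM and then 10.4 and 12.4 CPM, did not pass (limma, unadjusted p = 0.0684).

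Of the Ser reads, the 25-nt SerAGA read stood at 6.30 and 8.17 CPM and then at 15.04 and 26.4 CPM (log2 1.36 ± 0.37, limma, unadjusted p = 0.00473). Its p was 0.0549 without replicate 2 of the 18-month-old mice. The 26-nt SerGCT read stood at 3.53 and 17.8 CPM and then at 17.2 and 18.2 CPM, so the ages overlapped and replicate 1 of the 2-month-old mice set the difference: its log2 change was 1.02 ± 0.57 with all libraries and -0.01 without that library. The 18-nt SerTGA read stood at 10.4 and 8.78 CPM and then at 7.85 and 11.8 CPM, a log2 change of 0.01 ± 0.34. The 18-nt SerCGA read from trna688, gTCACGGtggccgagtgg, stood at 49.2 and 53.5 CPM and then at 49.6 and 35.3 CPM (log2 -0.29 ± 0.32, limma, unadjusted p = 0.385).

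The 5 largest falls were small next to the rises, and 4 of the 5 were Ser reads.
SerCGA, 18 nt: gCTGTGAtggccgagtgg
SerGCT, 18 nt: gACGAGGtggccgagtgg
SerGCT, 20 nt: tCGAATCccatcctcgtcgc
SerAGA, 19 nt: aTCCTGCcgactacgccat
IleAAT, 21 nt: tGCTAATaacgccaaggtcgc
The first 2 are A box reads that share their last 11 bases with the SerCGA read that did not pass. The SerCGA read stood at 59.5 and 51.1 CPM and then at 21.3 and 34.2 CPM, a log2 change of -1.004 ± 0.34 (limma, adjusted p = 0.387). The 18-nt SerGCT read stood at 13.9 and 15.9 CPM and then at 10.5 and 6.18 CPM, and the 20-nt SerGCT read at 7.15 and 5.71 CPM and then at 2.65 and 3.31 CPM. The SerAGA read, which ends in CCA and an added T, stood at 8.11 and 6.59 CPM and then at 4.44 and 3.42 CPM. The IleAAT read begins upstream of the rising family and stops before the T loop, and it stood at 4.96 and 3.60 CPM and then at 1.70 and 2.32 CPM. All 5 passed at unadjusted p-values from 0.0152 to 0.0481, and each lost the call without replicate 1 of the 2-month-old mice, at unadjusted p-values from 0.0584 to 0.193. Leaving out another library also cost each of them the call: replicate 1 of the 18-month-old mice for the SerCGA, SerAGA, 20-nt SerGCT and IleAAT reads, replicate 2 of the 18-month-old mice for all but the SerCGA read, and replicate 2 of the 2-month-old mice for the 18-nt SerGCT and SerAGA reads.

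Over all members the mean length, weighted by level, was 21.3 and 21.4 nt at 2 months and 22.0 and 22.0 nt at 18 months. Reads of 15 to 19 nt took 25.8% and 25.7% of the level at 2 months and 10.5% and 11.9% at 18 months. Reads of 20 to 24 nt took 67.9% and 65.4% and then 83.8% and 80.7%. The shift lay within the short reads, since reads of 25 to 29 nt took 6.14% and 8.81% and then 5.65% and 7.36%, and those of 30 nt or more at most 0.178% in any library. At 18 nt, the length of the Ser A box reads, the members summed to 166 and 177 CPM and then to 129 and 121 CPM. At 22 nt they summed to 141 and 162 CPM and then to 600.4 and 469 CPM, the highest ratio of any length, 3.53. The RNA had been cut from a gel at 19 to 35 nt, so the shortest reads lie at the edge of what was recovered.

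The members carried 262 different seeds, with viabilities from 4.4% to 95%. Seeds under 50% took 19.8% and 18.7% of the members' level at 2 months and 10.1% and 10.2% at 18 months, a difference of -9.06 points that was -5.05 points without the reads ending in CCA and an added A or T, while seeds of 70% or more took 47.0% and 49.997% and then 68.4% and 69.1%. In absolute terms the members with seeds under 50% summed to 222 and 215 CPM and then to 250 and 230 CPM, and those with seeds of 70% or more to 527 and 576 CPM and then to 1686 and 1555 CPM. Both levels were therefore higher in the older libraries without overlap, that of toxic seeds with a ratio of 1.10 and that of high-viability seeds with a ratio of 2.94. The mean viability, weighted by level, was 62.0% and 63.2% in the younger libraries and 67.8% and 67.9% in the older ones.

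In the Gly, Glu, Val, Lys, Asp and His fragments, seeds under 50% took 24.3% and 27.5% in the younger libraries and 32.9% and 30.8% in the older ones, and the mean viability was 59.4% and 58.4% and then 55.3% and 56.0%. In all sequences of the table seeds under 50% took 26.3% and 27.5% and then 28.5% and 25.6%, which overlap, and the mean viability was 57.7% and 57.9% and then 58.1% and 58.4%, higher at 18 months as in the members. The members made up at most 0.247% of the reads of a library, so that they weigh little in the value for all R-sRNAs.

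By amino acid, Asn fragments had almost no level in seeds under 50%, 1.81% in the younger libraries and 0.228% in the older ones. Thr fragments had 4.10% and 1.32%, and the highest mean viability, 75.9% and 78.5%. Gln fragments had the lowest mean viability, 53.3% and 53.0%, set by the AUCCAG seed, which lies just above 50%. Ser, Ile and Met had the larger shares of toxic seeds, 27.1%, 24.2% and 21.5% at 2 months and 22.0%, 17.4% and 13.3% at 18 months. Ser fragments held 57.8% of the level of all members with seeds under 50%. Reads ending in CCA and an added A or T held 37.5% of it, among them the SerTGA family with the seed CCCUGC (20.7%), at 48.2 and 44.9 CPM and then 38.6 and 34.3 CPM, and the SerAGA family with the seed UCCUGC (25.1%), at 30.2 and 26.4 CPM and then 19.5 and 26.0 CPM.

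A start shifted by 1 base changes the seed, and with it the viability. The clearest case was IleTAT, whose 2 main starts are shown next to each other.
IleTAT, later start: aATGCCGaggttgtgagttcgag
IleTAT, start 1 base earlier: tAATGCCgaggttgtgagttcga
The later start has the seed AUGCCG, with a viability of 73.0%, and the earlier the seed AAUGCC, with 8.0%. The earlier start stood at 6.39 and 5.01 CPM in the younger libraries and at 18.8 and 16.1 CPM in the older ones, and it took 13.2% and 10.1% and then 22.7% and 20.1% of the IleTAT level. It was the T arm family with the most toxic seed among the 30. In MetCAT the main start (AACCCA, 78.0%) took 35.5% and 35.8% and then 57.9% and 50.1% of the level, while a start 1 base earlier (UAACCC, 48.4%) took 5.15% and 5.72% and then 4.60% and 4.995%. In AsnGTT the 3 starts, UAACCG (84.0%), AACCGA (72.7%) and ACCGAA (78.9%), were all above 70%, and AACCGA took 84.3% and 82.7% and then 89.2% and 89.6%.

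How much of a seed's reads came from the members differed between families. Of all reads with the seed AACCGA in the table, members gave 99.6% and 99.7% in the younger libraries and 99.9% and 99.8% in the older ones. The seed occurred in both AsnGTT and ThrCGT reads, the latter at 5.24 and 3.86 CPM and then 15.1 and 17.4 CPM. For AUCCAG members gave 90.8% and 88.7% and then 94.1% and 93.9%, and for AACGCC 97.5% to 99.4%. For AAUCCA, the seed of the SerGCT family, they gave 50.9% and 70.4% and then 84.3% and 82.1%, and for UCACGG, that of a SerCGA A box family, 73.8% to 80.8%. No miRNA in the table carried AACCGA, and the miRNAs with AUCCAG or AACGCC averaged 3.36 and 0.671 CPM.

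Some seeds were shared with abundant miRNAs. AAUGCC, the toxic IleTAT seed, is also the seed of miR-365-3p reads, which averaged 76.0 CPM, and members gave 8.03% and 5.73% of the reads with it at 2 months and 16.6% and 22.1% at 18 months. AAACCA, the seed of the ThrTGT family (79.2%), was shared with miR-497a-3p reads at 32.1 CPM, and members gave 23.0% and 14.7% and then 52.6% and 27.8%. GCAGAG, the seed of a MetCAT A box family (50.2%), was shared with miR-298-5p reads at 105.8 CPM, and members gave 2.42% to 19.1% of it.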

How the data were processed

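The authors trimmed reads with Trim Galore (per the submitters' processing notes; versions are not given in the sources used here), dropped rare reads, annotated the remainder with BLAST against mouse small RNAs and deposited CPM per sequence and library. The deposited score is the viability that the authors assigned to each 6mer seed, in percent of the control. Every CPM was a whole number of reads (100% within 0.001 CPM), and no member had fewer than 4 reads.

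Members and lists were chosen with earlier results of these data known. Ages were compared two-sided on log2(CPM + 1) by limma 3.58.1 (R 4.3.3), which modelled age and a variance trend, for sequences of at least 1 CPM and RNAs summed by name of at least 10 CPM, adjusted by Benjamini-Hochberg over all of them. This fit was tested on simulated data. Alternatives were a replicate block, pseudocounts of 0.1 and 5, no filter and filters of 10 and 100 CPM, edgeR 4.0.16 and DESeq2 1.42.0 on the recovered reads, median-of-ratios rescaling, no trend, each library left out and other viability limits. Named were the leading read of each isoacceptor of at least 10 CPM, the 12 most abundant members, members with an adjusted p under 0.05, and the 5 largest rises and falls in mean CPM at an unadjusted p under 0.05 without overlap. Tables of tRNA genes came from RefSeq on GRCm38.p6.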

Additional observations from a re-analysis of the deposited data

How the results depend on the processing

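Of the 206 tested members, 86 passed the unadjusted threshold (79 of them higher), and the count was 167 (147 higher) of 1436 without a filter and 18 (17 higher) of 25 with the stricter filter, which differ in how many sequences were tested. Over all sequences the counts were 1443 of 14287, 3327 of 85704 without a filter, 424 of 3141 with the stricter filter and 1360 with edgeR. Among the members, edgeR on the recovered reads called 78 (74 higher). With 1 library left out limma called fewer members than with all libraries, and fewer of all sequences as well. Adjusted calls among the members numbered 3 in limma, 26 in DESeq2 and 2 in edgeR. Over all sequences they numbered 6, 93 and 3. The 10 isoacceptor calls, all higher, were 6 of 7 with the stricter filter and 4 to 9 without 1 library. The 2 adjusted isoacceptor calls were 1 with the stricter filter, 1 without the trend, 7 with DESeq2 and 2 with edgeR, which was fitted without a block. Over all summed RNAs the adjusted calls were 4, and 2, 2, 31 and 4 in these settings. With the stricter filter, 25 of all 349 summed RNAs rose at the unadjusted threshold. The cause of these differences between tools was not tested. With the replicate number as a block, limma gave 0 adjusted isoacceptor calls (10 unadjusted; 2 by edgeR; adjusted p = 0.196 for both AsnGTT and ThrCGT) and 2 adjusted sequences, with 84 unadjusted. Over all features that fit gave 0 adjusted summed RNAs and 3 adjusted sequences, with 1530 sequences unadjusted. Same-numbered libraries share only a number: the correlation of their deviations was 0.036 over sequences and 0.18 over summed RNAs.

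The difference in the summed level was 1112 to 1328 CPM without 1 library and 623 CPM without Asn. The share of toxic seeds kept its direction at limits of 40% and 60%, and its difference of -9.06 points was -5.05 points without reads ending in CCA and an added A or T, an alternative chosen after seeing the data. The SerGCT read had a log2 change of -0.0097 to 2.05 and the SerTGA read of -0.25 to 0.28 without 1 library, which turned both. Of the 20 named sequences past the unadjusted threshold, 12 lost it without some library and 5 under some other setting. Depth limits what can be seen of members near 3 reads, which were worth 0.263 to 0.331 CPM.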

Other observations

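Reads ending in the T arm were also found in tRNAs outside the 6 amino acids, in families picked after their levels were seen and given without a test. The most abundant was a HisGTG family with the seed GGCCGC, whose viability of 8.3% is among the toxic ones; its leading read was tGGCCGCagcaacctcggttcg. It stood at 45.4 and 32.9 CPM at 2 months and at 116 and 87.1 CPM at 18 months. A GlyCCC family with the seed AUUCUU (90.7%) stood at 6.77 and 8.96 CPM and then at 17.2 and 14.9 CPM, and a PheGAA family with the seed UCUAAA (85.0%) at 13.4 and 11.2 CPM and then at 21.3 and 16.5 CPM. In all 3 both older libraries lay above both younger ones. Over the Gly, Glu, Val, Lys, Asp and His fragments, the reads ending in the T arm summed to 94.8 and 77.8 CPM and then to 213 and 170 CPM, while the A box reads summed to 319 and 353 CPM and then to 237 and 297 CPM.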
